A study of Mus musculus with 12 samples.

Results

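C-type lectin receptors were described in conventional dendritic cells (cDCs) of the mouse spleen. The members were the protein-coding rows of the deposited expression table whose names begin with Clec and a digit, or are Cd209a to Cd209g, Cd207, Mgl2 or Mrc1. This gave 42 genes of 55322 rows, 21821 of which are protein coding. Of these 42 genes, 23 reached 1 FPKM (read counts scaled by exonic length and library total) in at least 3 of the 12 libraries and were tested. The other 19 stayed below that filter, and 5 of them were listed at 0 in every library. Clec7a (dectin-1) carries the type polymorphic pseudogene in the table and therefore fell outside the rule; its values are given beside those of the members.

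RNA was sequenced from cDCs sorted from spleens of naive mice of 7 to 8 weeks, with 3 libraries in each of 4 groups: the cDC1 groups L-cDC1 and M-cDC1, and the cDC2 groups L-cDC2 and M-cDC2. The labels give every library the genotype Il7r-cre; Rosa26-lsl-tdTomato, while the design text calls the mice wild type C57BL/6J. In such a mouse Cre is driven from the Il7r locus, and cells that once expressed Il7r, with their progeny, carry the tdTomato reporter. The labels leave the letters L and M unexplained, do not name the libraries for which the reporter was used in sorting, and give no animal for a replicate. The p-values here thus measure spread among samples, part or all of which may be technical. The series title concerns cDCs of lymphoid origin, so the question for the lectins was how L-cDCs compare with M-cDCs within each subset.

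C-type lectin receptors are membrane proteins of myeloid cells whose lectin-like domain binds glycans of microbes or, in several members, ligands exposed on the body's own cells. Many take their ligand up for antigen presentation. Some signal through an activating motif in their own tail or through a partner adaptor such as FcRγ, and others carry an inhibitory motif that recruits phosphatases. Several are used to tell the dendritic cell subsets apart, among them Clec9a on cDC1 and the Clec4a4 product, the antigen of antibody 33D1, on splenic cDC2.

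Recovered depth ran from 15879864 reads in M-cDC2 replicate 2 to 24498235 reads in M-cDC2 replicate 1, and 3 reads on a 1 kb gene were worth 0.122 to 0.189 FPKM. The subset labels held against their markers. All 9 cDC1 markers were higher and all 8 cDC2 markers lower in cDC1 than in cDC2, in both L and M. These are calls at a limma adjusted p under 0.05. The same comparisons called 12.9% of all tested genes higher and 26.6% lower in L, and 12.7% higher and 25.4% lower in M. Xcr1 lay between 181 and 249 FPKM in the cDC1 libraries and between 0.773 and 2.08 FPKM in the cDC2 libraries. Markers of other cells differed between L and M. The summed T and NK cell markers (13 genes) reached 14.7 to 21.6 FPKM in L-cDC1, against 0.504 to 0.973 FPKM in M-cDC1, and 51.9 to 126 FPKM in L-cDC2, against 2.08 to 2.75 FPKM in M-cDC2. The summed B cell markers (14 genes) reached 609 to 962 FPKM in L-cDC1, against 341 to 388 FPKM in M-cDC1, and 947 to 3290 FPKM in L-cDC2, against 411 to 454 FPKM in M-cDC2. Pax5 was at 0 in all M libraries; Trac and Cd3g were at 0 in M-cDC1, and Trbc2 and Cd3g in M-cDC2. In bulk RNA, fewer cells of a type and less RNA per cell cannot be told apart.

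The sequences around the start sites of 5 members are shown for the contrasts described below. Cd209a and Cd209e are neighbours of 1 family found on opposite sides of the subset comparison. Clec4a1 and Clec4b2 lie in 1 gene cluster with other members between them and are on opposite sides too. Cd207 is the second most abundant lectin of cDC1. Each window runs from 250 bases before to 50 after the RefSeq start in build GRCm38.p6, written 5′ to 3′ on the gene's strand. Capitals mark a match to the ETS-IRF composite element, searched as GGAA, any 2 bases and GAAA and known to bind PU.1 with IRF4 or IRF8, or to TGANTCA, the AP-1 site. An IRF repeat, searched as GAAA, any 2 bases and GAAA, and GAGGAAGT, a PU.1 site, were also searched, all on both strands.
Cd209a (chr8:3748935-3749234, minus strand): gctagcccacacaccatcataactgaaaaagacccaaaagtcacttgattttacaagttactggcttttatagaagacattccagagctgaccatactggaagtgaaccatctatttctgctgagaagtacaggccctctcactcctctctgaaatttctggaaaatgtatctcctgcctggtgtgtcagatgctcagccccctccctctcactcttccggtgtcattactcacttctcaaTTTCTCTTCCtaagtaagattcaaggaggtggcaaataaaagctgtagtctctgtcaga
Cd209e (chr8:3854237-3854536, minus strand): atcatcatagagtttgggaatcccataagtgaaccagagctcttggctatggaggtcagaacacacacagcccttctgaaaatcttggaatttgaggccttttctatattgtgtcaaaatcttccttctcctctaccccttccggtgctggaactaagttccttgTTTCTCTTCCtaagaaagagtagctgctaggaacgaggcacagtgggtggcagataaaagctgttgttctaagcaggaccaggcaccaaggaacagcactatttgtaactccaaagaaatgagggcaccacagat
Clec4a1 (chr6:122921598-122921897, plus strand): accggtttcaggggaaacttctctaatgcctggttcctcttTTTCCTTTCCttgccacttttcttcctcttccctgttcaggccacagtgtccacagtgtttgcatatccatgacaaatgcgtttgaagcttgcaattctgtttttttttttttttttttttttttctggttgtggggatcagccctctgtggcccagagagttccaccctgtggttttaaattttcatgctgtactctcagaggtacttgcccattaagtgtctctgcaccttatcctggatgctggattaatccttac
Clec4b2 (chr6:123172773-123173072, plus strand): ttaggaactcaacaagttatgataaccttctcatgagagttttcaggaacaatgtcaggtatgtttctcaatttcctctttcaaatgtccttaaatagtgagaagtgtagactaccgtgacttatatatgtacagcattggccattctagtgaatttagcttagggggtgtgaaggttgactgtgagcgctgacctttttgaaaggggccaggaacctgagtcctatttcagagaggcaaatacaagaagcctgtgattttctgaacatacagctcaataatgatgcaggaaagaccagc
Cd207 (chr6:83677808-83678107, minus strand): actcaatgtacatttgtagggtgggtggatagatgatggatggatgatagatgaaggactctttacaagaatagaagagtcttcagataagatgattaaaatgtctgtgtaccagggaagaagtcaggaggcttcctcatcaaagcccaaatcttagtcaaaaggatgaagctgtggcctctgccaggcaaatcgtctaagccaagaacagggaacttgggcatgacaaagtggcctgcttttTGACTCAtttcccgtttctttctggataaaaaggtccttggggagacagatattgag

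RefSeq windows matched 35 of the 42 members and 18 of the 23 tested ones, which gave 20 windows since some genes have more than 1 start. The composite element was found in 6 of these 20 windows, those of Cd209a, Cd209d, Cd209e and Clec4a1 and both overlapping windows of Clec2i, and in 2.72% of 32851 windows of the same length over all genes. Both windows of Clec2i hold the same site, and the Cd209 genes belong to the same family, so the 6 windows are not independent. Their share was not tested against that of all genes. Cd209a, Cd209d and Cd209e hold the same letters, TTTCTCTTCC, on the gene strand, beginning 9, 70 and 85 bases before the start. The AP-1 letters were found in the windows of Cd207, Clec12a and Clec4a2, against 7.81% of all windows, and in Cd207 they begin 7 bases before the start. The IRF repeat was found in Clec2d and Clec4b1, against 3.44% of all windows, and GAGGAAGT in none of the 20, against 3.2% of all windows. Genes on both sides of the subset comparison hold the composite letters, since Cd209e was higher and Cd209a, Cd209d, Clec4a1 and Clec2i were lower in cDC1 than in cDC2. A match is a run of letters and not a measured binding site.

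**Figure D1:**
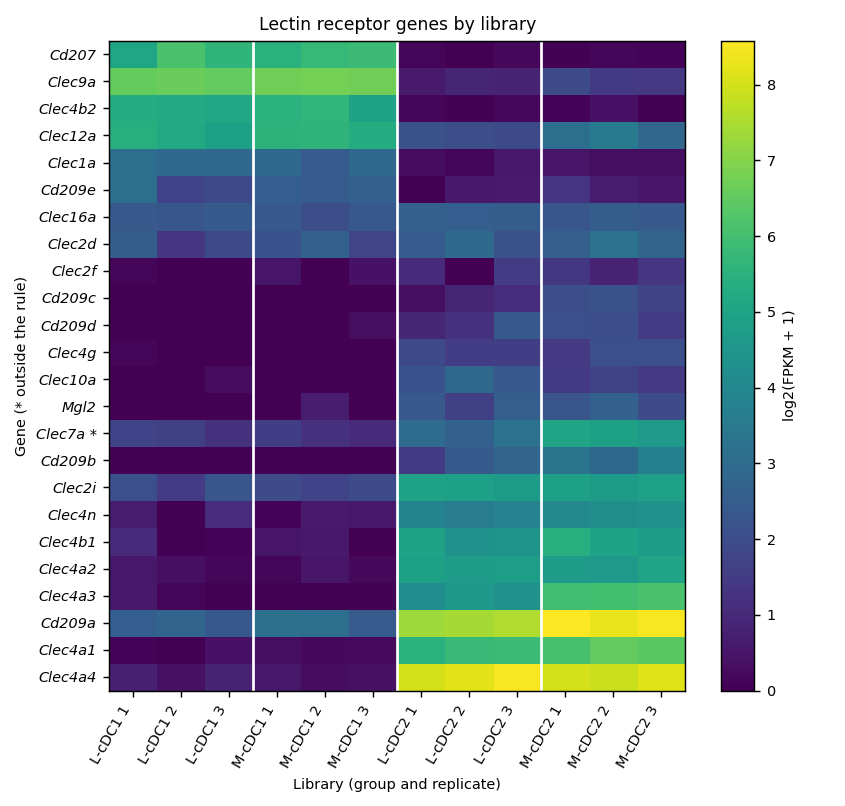
Levels of the 23 tested lectin members, and of Clec7a (asterisk, outside the rule), in each of the 12 libraries, drawn as log2(FPKM + 1). Genes are in rows and libraries in columns (the L and M libraries of cDC1, then those of cDC2). Lighter colours mark higher levels. Clec9a, Cd207, Clec4b2, Clec12a, Clec1a and Cd209e stand highest in the cDC1 columns, and the 14 members called lower in cDC1 stand highest in the cDC2 columns.

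The cDC1 and cDC2 of the spleen carried different sets of lectins, in L and in M alike. In L, 20 of the 23 tested members differed between L-cDC1 and L-cDC2 at a limma adjusted p under 0.05, 6 higher and 14 lower in L-cDC1, where 39.5% of all 12434 tested genes differed (12.9% higher, 26.6% lower). The M libraries gave 6 higher and 14 lower in M-cDC1 than in M-cDC2, the same 20 genes, where 38.1% of all genes differed (12.7% higher, 25.4% lower). The median member was lower by 1.65 log2 units of FPKM + 1 in L-cDC1 than in L-cDC2 (log2 difference -1.65) and had a difference of -1.86 in M, against medians of -0.19 and -0.18 over all tested genes. The L and M comparisons share no library. The filter of 1 FPKM in 3 of 12 libraries can be met by 1 subset alone. Members such as Cd207 and Clec4a4 were therefore tested only through the subset where they are high. The same filter held for all tested genes, and the counts and medians are no test of the lectins as a set. Over all tested genes 1605 were higher and 3308 lower in L-cDC1, and 1573 higher and 3163 lower in M-cDC1; with median-of-ratios rescaling these were 2252 and 2371 in L and 2176 and 2269 in M, while the members stayed at 6 and 14 in both. Differences on this scale understate the change of genes at low levels.

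Summed over the 42 members, lectin mRNA reached 230 to 264 FPKM in the 3 L-cDC1 libraries and 261 to 292 FPKM in the 3 M-cDC1 libraries. The L-cDC2 libraries held 609 to 744 FPKM and the M-cDC2 libraries 851 to 947 FPKM, so the 4 groups did not overlap except for the cDC1 groups of L and M. A few genes made up most of each sum. Clec9a took 38.2% ± 1.6 of it in L-cDC1, against 38.8% ± 1.06 in M-cDC1 (SD, n = 3 each). In L-cDC2 Clec4a4 led with 45.1% ± 2.66, before Cd209a with 25.5% ± 0.438. In M-cDC2 the order was the other way, with Cd209a at 38.6% ± 2.22 and Clec4a4 at 28.5% ± 1.22.

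**Figure D2:**
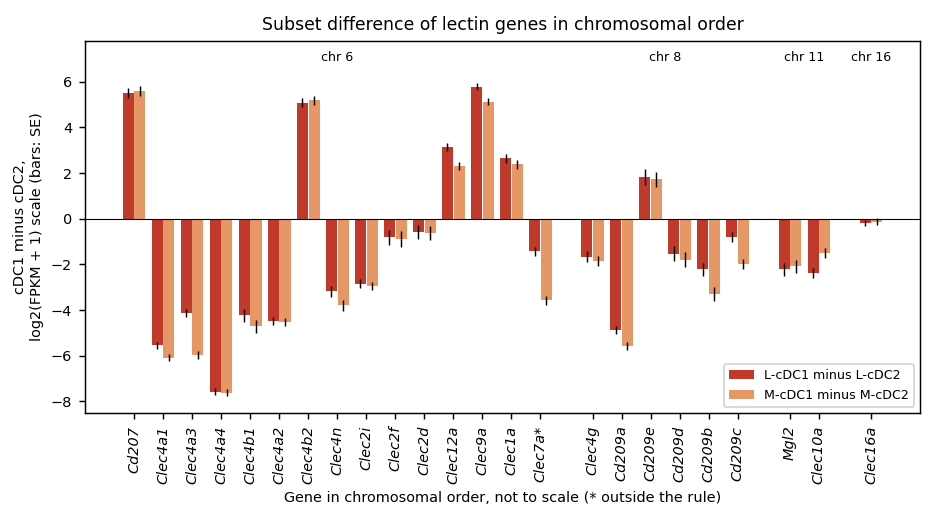
Log2 difference of cDC1 minus cDC2 for each tested lectin, with SE bars, in L and in M, on the log2(FPKM + 1) scale. Genes are in chromosomal order, not to scale, and Clec7a (asterisk, outside the rule) is drawn as well. Cd207, Clec4b2, Clec12a, Clec9a, Clec1a and Cd209e have positive bars in L and in M. All other genes have negative bars.

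Among the lectins higher in cDC1, Clec9a (DNGR-1), which binds actin filaments exposed on dead cells and signals through an activating motif in its own tail, was the most abundant. It stood at 92.8, 96.9 and 91.8 FPKM in L-cDC1, against 0.535, 0.864 and 0.786 FPKM in L-cDC2. The M libraries held 105, 110.5 and 104 FPKM in cDC1, against 2.88, 1.78 and 1.68 FPKM in cDC2. No cDC1 library came near a cDC2 library, and the log2 differences were 5.78 in L and 5.13 in M (SE 0.145 each; limma adjusted p 3.43e-12 and 8.07e-12). Clec9a lies on chromosome 6 at 129385825 to 129401726 in the coordinates of the deposited table, whose build is not given; 4.02% of its 50-base words also occur in Clec1b, which overlaps it on the same strand.

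Cd207 (langerin), an endocytic receptor for mannose-rich glycans, had 32.4, 68.9 and 47.6 FPKM in L-cDC1, against 0.0827, 0 and 0.145 FPKM in L-cDC2. In M it had 43.2, 52.4 and 58.1 FPKM in cDC1, against 0.0268, 0.0828 and 0.0678 FPKM in cDC2. The cDC2 libraries together held 7 reads in L and 5 in M, so the gene was close to undetected there, and the log2 differences were 5.49 in L and 5.61 in M (SE 0.219 each; limma adjusted p 1.99e-10 and 1.62e-10). Within L-cDC1 its level spread more widely than that of Clec9a, at 49.6 ± 18.3 FPKM, against 93.8 ± 2.71 FPKM (SD, n = 3).

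Clec4b2, a receptor of the FcRγ-coupled DCAR pair, had 39.2, 37.0 and 33.2 FPKM in L-cDC1, against 0.107, 0.0391 and 0.141 FPKM in L-cDC2. In M-cDC1 it had 43.3, 49.3 and 29.8 FPKM, against 0.0695, 0.322 and 0 FPKM in M-cDC2. The other member of the pair, Clec4b1, ran the opposite way, with 1.08, 0 and 0.0666 FPKM in L-cDC1, against 30.0, 20.3 and 20.8 FPKM in L-cDC2. The log2 differences in L were 5.09 for Clec4b2 (SE 0.186, limma adjusted p 9.21e-11) and -4.22 for Clec4b1 (SE 0.284, limma adjusted p 4.24e-08). In M they were 5.19 and -4.70 (limma adjusted p 7.10e-11 and 1.49e-08). No 50-base word of Clec4b2 occurs in another gene, while 8.68% of those of Clec4b1 also occur in Clec4a2.

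Clec12a (MICL), an inhibitory receptor that recognises uric acid crystals, was higher in cDC1 by 3.14 log2 units in L and 2.33 in M (SE 0.182 each; limma adjusted p 9.29e-09 and 2.09e-07). Its means were 35.6 ± 6.84 FPKM in L-cDC1, against 3.12 ± 0.274 FPKM in L-cDC2, and 43.9 ± 4.26 FPKM in M-cDC1, against 8.09 ± 2.27 FPKM in M-cDC2 (SD, n = 3 each). Clec1a, a receptor for fungal melanin, averaged 6.89 ± 0.619 FPKM in L-cDC1, against 0.258 ± 0.186 FPKM in L-cDC2, and its log2 differences were 2.66 in L and 2.39 in M (limma adjusted p 8.95e-08 and 2.78e-07). Cd209e (SIGNR4), of the DC-SIGN family, had 7.54, 2.28 and 2.78 FPKM in L-cDC1, against 0, 0.509 and 0.550 FPKM in L-cDC2. Its 1 high library, L-cDC1 replicate 1, made the spread wide, and the log2 differences were 1.83 in L and 1.74 in M (SE 0.333 each; limma adjusted p 0.000607 and 0.00097).

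All 4 tested Clec4a genes, the DCIR family, were lower in cDC1 than in cDC2. Clec4a4 (DCIR2), with an inhibitory motif in its tail, had 0.682, 0.311 and 0.808 FPKM in L-cDC1, against 261, 296 and 358 FPKM in L-cDC2. In M it had 0.459, 0.216 and 0.294 FPKM in cDC1, against 261, 234 and 283 FPKM in cDC2. Its log2 differences, -7.58 in L and -7.62 in M, were the lowest among the 23 tested members (SE 0.153 each; limma adjusted p 5.31e-13 and 4.95e-13). Of its 50-base words 15.7% also occur in Clec4a2 (DCIR1), the other inhibitory receptor of the family, so reads may have been split or lost between them.

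Clec4a2 averaged 0.268 ± 0.181 FPKM in L-cDC1, against 26.8 ± 1.67 FPKM in L-cDC2, and its log2 differences were -4.46 in L and -4.51 in M (limma adjusted p 1.43e-10 and 1.15e-10). Clec4a1 (DCIR4) and Clec4a3 (DCIR3), relatives without the inhibitory motif, were also lower in cDC1. The differences of Clec4a1 were -5.54 in L and -6.08 in M (SE 0.164 each; limma adjusted p 1.12e-11 and 5.80e-12), and those of Clec4a3 were -4.11 in L and -5.99 in M (SE 0.174 each; limma adjusted p 3.69e-10 and 1.01e-11). Clec4n (dectin-2), an FcRγ-coupled receptor for fungal mannans, averaged 0.567 ± 0.552 FPKM in L-cDC1, against 12.6 ± 1.16 FPKM in L-cDC2 (SD, n = 3 each). Its log2 differences were -3.18 in L and -3.79 in M (limma adjusted p 1.94e-07 and 3.20e-08).

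Of the 13 endocytic glycan receptors, 9 were tested; 2 of these, Cd207 and Cd209e, were higher and 7 were lower in cDC1 than in cDC2. Cd209a, a mouse homologue of human DC-SIGN, was the most abundant of them in cDC2 and stood below Cd207 in cDC1. It had 4.98 ± 0.912 FPKM in L-cDC1, against 171 ± 14.3 FPKM in L-cDC2, and 6.66 ± 1.87 FPKM in M-cDC1, against 351 ± 35.1 FPKM in M-cDC2 (SD, n = 3 each). Its log2 differences were -4.86 in L and -5.55 in M (SE 0.173 each; limma adjusted p 6.87e-11 and 1.97e-11). Unlike most cDC2 lectins it was clearly present in cDC1, among the 6 most abundant members there.

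Cd209b (SIGNR1), known from marginal zone macrophages of the spleen, Cd209c and Cd209d stood near the detection floor in cDC1. Cd209c had no read in any of the 6 cDC1 libraries, and its mean was at least 10-fold lower in L-cDC1 than in L-cDC2 and at least 40.6-fold lower in M-cDC1 than in M-cDC2, taking 3 reads per library as the floor. Cd209b had no read in M-cDC1 and was at least 133-fold lower there than in M-cDC2; Cd209d had none in L-cDC1 and was at least 13.1-fold lower there than in L-cDC2. The limma differences in L and M were -2.22 and -3.31 for Cd209b, -1.53 and -1.80 for Cd209d, and -0.79 and -1.98 for Cd209c, with adjusted p of at most 0.0157. The call of Cd209c in L ended without L-cDC2 replicate 3 (limma adjusted p 0.0685), with quantile normalization (0.0553) and with only the 2 groups (0.0543), and 15.7% of its 50-base words occur in other genes.

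The galactose-type receptors Clec10a (MGL1) and Mgl2 were lower in cDC1 as well. Clec10a averaged 0.0721 ± 0.125 FPKM in L-cDC1, against 4.65 ± 1.54 FPKM in L-cDC2 (log2 difference -2.37, limma adjusted p 1.44e-06), and differed by -1.50 in M (limma adjusted p 0.000113). Mgl2 had no read in L-cDC1, at least 51.8-fold lower than in L-cDC2, and its log2 differences were -2.20 in L and -2.07 in M (limma adjusted p 3.30e-05 and 5.94e-05). They share sequence, since 9.02% of the 50-base words of Clec10a and 13.1% of those of Mgl2 occur elsewhere, mostly in each other. Clec4g (LSECtin), known from liver sinusoidal endothelium, averaged 0.0286 ± 0.0496 FPKM in L-cDC1, against 2.25 ± 0.418 FPKM in L-cDC2 (log2 difference -1.65, limma adjusted p 4.53e-05), and differed by -1.86 in M (limma adjusted p 1.50e-05). In the coordinates of the deposited table its exons overlap Gm16553 on the opposite strand by 146 bases. Gm16553 held at most 0.56 FPKM in cDC1, against 18.8 to 27.5 FPKM in cDC2, and the library kits do not mark strand, so reads within that overlap cannot be told apart; the rest of the 2462 exonic bases of Clec4g is free of it.

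The Clec2 genes encode ligands of NK cell receptors of the NKR-P1 family. Clec2i (Clr-g) averaged 3.01 ± 1.06 FPKM in L-cDC1, against 27.0 ± 2.38 FPKM in L-cDC2, and 2.72 ± 0.337 FPKM in M-cDC1, against 27.5 ± 2.40 FPKM in M-cDC2 (SD, n = 3 each). Its differences were -2.84 in L and -2.94 in M (limma adjusted p 2.72e-08 and 1.99e-08). Clec2d (Clr-b) was present at 1.59 to 8.25 FPKM in every library and did not pass the test, with differences of -0.58 in L and -0.64 in M (SE 0.311 each; limma adjusted p 0.158 and 0.127); without L-cDC1 replicate 1 the adjusted p in L was 0.0435. Clec2f (Clr-c) stayed below 2 FPKM and missed the threshold, with differences of -0.80 and -0.88 (limma adjusted p 0.0728 and 0.0529). It passed without L-cDC2 replicate 2 (0.0042 in L and 0.0135 in M) and in M without L-cDC2 replicate 3 (0.0313) or M-cDC2 replicate 2 (0.0439). Clec16a, an endolysosomal protein that carries the family name, lay at 3.20 to 5.16 FPKM throughout, with differences of -0.19 and -0.13 (limma adjusted p 0.341 and 0.521).

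The genes lie mostly in clusters, 25 of the 42 on chromosome 6 and 10 on chromosome 8. In the table's coordinates the chromosome 6 run from Clec4a1 to Clec4n spans 122898807 to 123223980. Along it Clec4a1, Clec4a3, Clec4a4, Clec4b1 and Clec4a2 were all lower in cDC1, Clec4b2 was higher, and Clec4n was lower again. Further along, Clec12a, Clec9a and Clec1a, between 129319654 and 129428963, were all higher in cDC1, and their neighbour Clec7a was lower. On chromosome 8, Cd209e at 3897965 to 3904309 was higher in cDC1, while Cd209a on one side and Cd209d, Cd209b and Cd209c on the other were lower.

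Between L-cDC1 and M-cDC1 no tested lectin passed the test. Of the 23 members 0 passed the limma test and 0 had an unadjusted p under 0.05, and limma-voom on the recovered reads also called 0; over all tested genes 0.394% passed (0.354% higher and 0.0402% lower in L-cDC1). The log2 differences of L-cDC1 minus M-cDC1 ran from -0.34 to 0.27 with a median of 0.00, against 0.02 over all tested genes. Clec9a averaged 93.8 ± 2.71 FPKM in L-cDC1, against 106.5 ± 3.44 FPKM in M-cDC1 (SD, n = 3 each); these 2 groups did not overlap, but the difference was -0.18 (SE 0.145, limma adjusted p 0.747). Clec12a differed by -0.31 (SE 0.182, limma adjusted p 0.623) and Cd209a by -0.34 (SE 0.173, limma adjusted p 0.547).

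**Figure D3:**
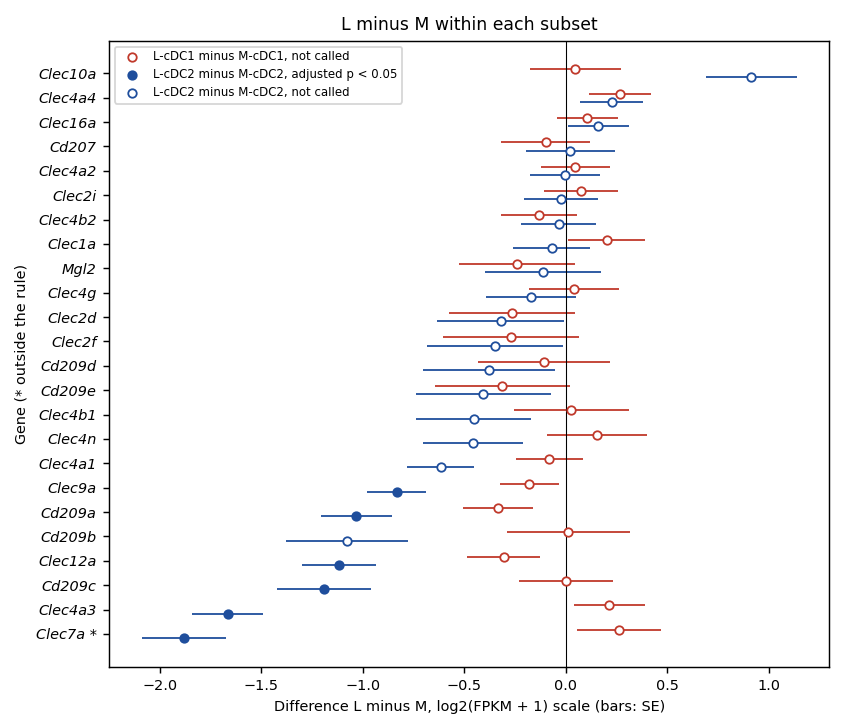
Log2 difference of L minus M for each tested lectin, with 1 SE, in cDC1 and in cDC2, on the log2(FPKM + 1) scale; filled points passed the limma test. In cDC1 the points of the members lie between -0.34 and 0.27, and in cDC2 they lie between -1.67 and 0.91 with 5 filled points, all below 0. Clec7a, outside the rule and marked with an asterisk, is drawn as well and has a filled point at -1.88 in cDC2.

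Between L-cDC2 and M-cDC2, of the 23 members 5 were called, each lower in L-cDC2 than in M-cDC2, and 0 were called higher, where 1.83% of all tested genes were called (0.788% lower and 1.04% higher). The median member had a difference of -0.35, against 0.03 over all tested genes. The 5 were Clec4a3, Cd209a, Clec12a, Clec9a and Cd209c. Clec7a, outside the rule, was called lower too. This comparison shares its cDC2 libraries with the subset comparisons above.

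Clec4a3 had 16.9, 22.9 and 19.1 FPKM in L-cDC2, against 60.8, 62.4 and 69.0 FPKM in M-cDC2. Every L-cDC2 library lay well below every M-cDC2 library, with means 3.27-fold apart (log2 difference -1.67, SE 0.174, limma adjusted p 0.000107). In cDC1 the gene was almost silent, with 0.518, 0.109 and 0 FPKM in L-cDC1, against 0, 0.0422 and 0.0343 FPKM in M-cDC1. These rest on 16 reads in L-cDC1 and 2 in M-cDC1, so on the log2(FPKM + 1) scale no difference in cDC1 could show. The interaction term of limma, 1.88 (SE 0.246, adjusted p 0.00667), therefore restates the difference in cDC2 and does not compare the subsets. Clec4a3 was the 1 member of 23 to pass the interaction test, where 0.298% of all tested genes passed (0.193% with a positive and 0.105% with a negative term). With a pseudocount of 0.1 FPKM in place of 1 the difference in cDC2 missed the threshold (limma adjusted p 0.146), and so did the interaction (limma adjusted p 0.240); the interaction was also not called with limma-voom on recovered reads (adjusted p 0.462).

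Clec7a, the β-glucan receptor dectin-1 with an activating motif in its own tail, had 7.03, 5.34 and 8.31 FPKM in L-cDC2, against 31.3, 28.3 and 24.0 FPKM in M-cDC2. Its groups were far apart, 4.04-fold in means (log2 difference -1.88, SE 0.206, limma adjusted p 0.000152). In cDC1 it had 2.33, 2.102 and 1.37 FPKM in L, against 2.04, 1.32 and 1.02 FPKM in M, and the interaction term was 2.14 (SE 0.291, limma adjusted p 0.00851). The interaction was not called with limma-voom on recovered reads (adjusted p 0.0868).

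Cd209a had 157, 170 and 186 FPKM in L-cDC2, against 382, 313 and 360 FPKM in M-cDC2. All 3 L-cDC2 libraries were lower than all 3 M-cDC2 libraries, by 2.05-fold in means (log2 difference -1.03, SE 0.173, limma adjusted p 0.00549). Clec4a4, in contrast, had 261, 296 and 358 FPKM in L-cDC2, against 261, 234 and 283 FPKM in M-cDC2; these ranges overlap, and the difference of 0.22 did not pass (SE 0.153, limma adjusted p 0.696). The ratio of Cd209a to Clec4a4, chosen after their values were seen and not tested, was 0.603, 0.576 and 0.520 in the L-cDC2 libraries, against 1.47, 1.34 and 1.27 in the M-cDC2 libraries. It is below 1 in every L-cDC2 library and above 1 in every M-cDC2 library, so the leading lectin transcript differs between the groups.

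**Figure D4:**
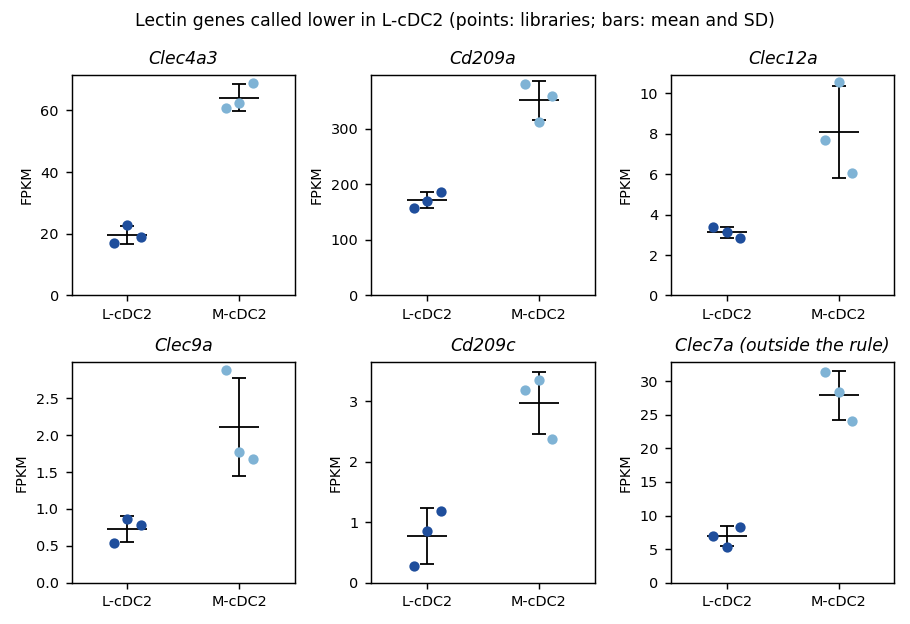
FPKM of lectin genes in the individual libraries of L-cDC2 and M-cDC2, with a bar at the mean of 3 libraries. Clec4a3, Cd209a, Clec12a, Clec9a, Cd209c and Clec7a are lower in every L-cDC2 library than in any M-cDC2 library.

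Clec12a had 3.36, 3.16 and 2.82 FPKM in L-cDC2, against 7.67, 10.5 and 6.07 FPKM in M-cDC2. The L-cDC2 libraries agree closely and lie below all 3 M-cDC2 libraries (log2 difference -1.12, SE 0.182, limma adjusted p 0.00417). Clec9a had the values given above, 0.535 to 0.864 FPKM in L-cDC2, against 1.68 to 2.88 FPKM in M-cDC2, without overlap (log2 difference -0.83, SE 0.145, limma adjusted p 0.00732). Both are cDC1 lectins, and markers of cDC1 stood beside them as follows. Of the 9 cDC1 markers 0 were higher and 1, Naaa, was lower in L-cDC2, where 1.04% of all tested genes were higher and 0.788% lower. Their summed level was 168 to 173 FPKM in L-cDC2, against 169 to 179 FPKM in M-cDC2. Most of that sum was Wdfy4, at 86.0 FPKM in L-cDC2, against 71.5 FPKM in M-cDC2, and Batf3, at 55.1 FPKM in L-cDC2, against 62.5 FPKM in M-cDC2, on average. Naaa averaged 13.2 FPKM in L-cDC2, against 22.9 FPKM in M-cDC2. Irf8 had nearly equal means, 11.8 FPKM in L-cDC2, against 12.05 FPKM in M-cDC2 (log2 difference -0.02, limma adjusted p 0.911). Of the markers at low level in cDC2, Cd8a averaged 1.09 FPKM in L-cDC2, against 1.64 FPKM in M-cDC2, Tlr3 1.60 FPKM in L-cDC2, against 2.18 FPKM in M-cDC2, Cadm1 0.347 FPKM in L-cDC2, against 0.508 FPKM in M-cDC2, and Itgae 0.746 FPKM in L-cDC2, against 0.386 FPKM in M-cDC2. Xcr1 had 0.773, 0.9995 and 0.866 FPKM in L-cDC2, against 1.49, 2.08 and 1.29 FPKM in M-cDC2, and did not pass (log2 difference -0.47, SE 0.147, limma adjusted p 0.186), though it did with a pseudocount of 0.1 FPKM (limma adjusted p 0.0446). Their part in the result was not tested.

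Cd209c had 0.273, 0.850 and 1.19 FPKM in L-cDC2, against 3.19, 3.34 and 2.38 FPKM in M-cDC2. The L-cDC2 libraries rest on 93 reads in all, yet none reaches the M-cDC2 range (log2 difference -1.19, SE 0.232, limma adjusted p 0.0147). The call ended with a pseudocount of 0.1 FPKM (limma adjusted p 0.243) and when L-cDC2 replicate 1, M-cDC2 replicate 1 or M-cDC2 replicate 2 was left out (limma adjusted p 0.0508, 0.0644 and 0.0811). When the fit held only the L-cDC2 and M-cDC2 libraries, Cd209c, Clec12a and Clec9a missed the threshold (limma adjusted p 0.0896, 0.0609 and 0.179), and limma-voom gave 0.0566 for Clec9a.

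Other members pointed either way without passing. Clec10a had 3.48, 6.40 and 4.07 FPKM in L-cDC2, against 1.77, 2.39 and 1.67 FPKM in M-cDC2, a difference of 0.91 (SE 0.223, limma adjusted p 0.0622) that was the highest of the 23. Its groups do not overlap, and without L-cDC2 replicate 1 the adjusted p was 0.0469. Cd209b had 1.73, 4.38 and 6.02 FPKM in L-cDC2, against 8.82, 6.52 and 12.1 FPKM in M-cDC2, a difference of -1.08 (SE 0.302, limma adjusted p 0.117). Without L-cDC2 replicate 3 its adjusted p was 0.0405. Clec4a1 had 43.8, 54.5 and 56.8 FPKM in L-cDC2, against 67.0, 90.1 and 82.7 FPKM in M-cDC2 (difference -0.62, SE 0.164, limma adjusted p 0.0924). Clec4n (-0.46), Clec4b1 (-0.45), Cd209e (-0.41) and Cd209d (-0.38) also had negative log2 differences that did not pass (limma adjusted p 0.578, 0.663, 0.762 and 0.777). Clec4a2 at 26.8 ± 1.67 FPKM in L-cDC2 and 27.0 ± 3.97 FPKM in M-cDC2, and Clec2i at 27.0 ± 2.38 FPKM in L-cDC2 and 27.5 ± 2.40 FPKM in M-cDC2, had nearly equal means (SD, n = 3 each).

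Of the 15 monocyte and macrophage markers 12 were tested. Of these 0 were higher and 2 lower in L-cDC2 than in M-cDC2, where 1.04% of all tested genes were higher and 0.788% lower. The other 10 did not pass, and the list median was -0.58, against 0.03 over all tested genes. Lyz2, which encodes lysozyme, had 223, 351 and 183 FPKM in L-cDC2, against 969, 1021 and 804 FPKM in M-cDC2 (log2 difference -1.93, SE 0.179, limma adjusted p 5.00e-05). Csf1r, the receptor of the macrophage growth factor CSF1, had 20.9, 24.0 and 27.4 FPKM in L-cDC2, against 64.1, 67.8 and 64.0 FPKM in M-cDC2 (log2 difference -1.41, SE 0.148, limma adjusted p 0.000107). Their summed level was 708 to 872 FPKM in L-cDC2, against 1460 to 1680 FPKM in M-cDC2, and 608 to 656 FPKM in L-cDC1, against 729 to 765 FPKM in M-cDC1. Levels of the other markers differed widely. Adgre1 (F4/80) averaged 94.9 FPKM in L-cDC2, against 119 FPKM in M-cDC2, and Cd68 393 FPKM in L-cDC2, against 434 FPKM in M-cDC2. Means of the complement genes were 2.14 FPKM in L-cDC2, against 4.06 FPKM in M-cDC2, for C1qa, and 4.11 FPKM in L-cDC2, against 9.17 FPKM in M-cDC2, for C1qb. Spic averaged 3.84 FPKM in L-cDC2, against 5.59 FPKM in M-cDC2, and Ly6c2 1.92 FPKM in L-cDC2, against 0.946 FPKM in M-cDC2. Fcgr1, Mertk and Marco were at most 0.559 FPKM in any library. The part of these markers in the lectin differences was not tested, nor was that of the T, NK and B cell markers given above.

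Partner molecules of the lectins were read from a list of 26 adaptors, kinases and downstream factors, of which 25 were tested. Between L-cDC1 and M-cDC1 0 were higher and 1 was lower, where 0.394% of all tested genes were called, and between L-cDC2 and M-cDC2 1 was higher and 1 was lower, where 1.83% were called. Fcer1g, the FcRγ chain that couples Clec4n, Clec4b1 and Clec4b2 to Syk, was the lower gene in both. It had 30.2, 25.7 and 27.0 FPKM in L-cDC1, against 59.8, 62.3 and 50.3 FPKM in M-cDC1, without overlap (log2 difference -1.03, SE 0.112, limma adjusted p 0.000676). In cDC2 it had 743, 739 and 846 FPKM in L, against 978, 1216 and 1114 FPKM in M (log2 difference -0.50, SE 0.112, limma adjusted p 0.0342), and the interaction did not pass (-0.52, limma adjusted p 0.298). The call in cDC2 ended without L-cDC2 replicate 1 or 2 (limma adjusted p 0.132 and 0.153), without M-cDC2 replicate 2 or 3 (0.162 and 0.132) and without M-cDC1 replicate 1 (0.0524), as well as with no filter (0.0962), quantile normalization (0.0768) and only the 2 groups (0.103). Blnk, a B cell linker of Syk signalling, was the higher gene in L-cDC2, with 0.974, 5.02 and 3.14 FPKM, against 0.204, 0.158 and 0.103 FPKM in M-cDC2 (log2 difference 1.67, limma adjusted p 0.019), beside the B cell markers, of which 9 of 12 tested were higher in L-cDC2 and 0 lower. Its call ended without any 1 of L-cDC2 replicates 2 and 3 and M-cDC2 replicates 1, 2 and 3 (limma adjusted p from 0.0542 to 0.0814), with no filter (0.0931) and with only the 2 groups (0.123).

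Between the subsets, 3 of the 25 were higher and 17 lower in L-cDC1 than in L-cDC2, where 12.9% of all tested genes were higher and 26.6% lower. In M 1 was higher and 16 were lower in M-cDC1 than in M-cDC2, where 12.7% of all tested genes were higher and 25.4% lower, with list medians of -0.66 and -0.78, against -0.19 and -0.18 over all tested genes. Fcer1g differed by -4.76 in L and -4.24 in M (limma adjusted p 1.89e-12 and 4.73e-12), and the Src family kinase Fgr by -3.60 and -3.61 (limma adjusted p 1.12e-11 and 1.09e-11). The phosphatase Ptpn6 (SHP-1), which binds inhibitory tails such as those of Clec4a4 and Clec12a, had 121 to 171 FPKM in L-cDC1, against 574 to 595 FPKM in L-cDC2 (log2 difference -2.06, limma adjusted p 2.53e-08). Syk itself had 10.9 to 16.5 FPKM in L-cDC1, against 41.5 to 48.6 FPKM in L-cDC2 (log2 difference -1.69, limma adjusted p 1.94e-06). Inpp5d (SHIP-1), a lipid phosphatase, was the 1 gene higher in cDC1 in both L and M, by 0.74 and 0.59 (limma adjusted p 0.000118 and 0.000829).

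Lectin genes of related families outside the naming rule, 10 tested of 20 listed, gave 4 higher and 6 lower in cDC1 than in cDC2 in L and in M, where 39.5% and 38.1% of all tested genes were called. Ly75 (DEC-205), an endocytic receptor long used to mark cDC1, had 24.0 to 25.4 FPKM in L-cDC1, against 3.22 to 3.40 FPKM in L-cDC2 (log2 difference 2.57, limma adjusted p 6.09e-09). Klrd1 (CD94) ran the other way, with 1.24 to 2.56 FPKM in L-cDC1, against 105 to 133 FPKM in L-cDC2 (log2 difference -5.41, limma adjusted p 3.52e-11). Between L and M, 1 of the 10 was higher in L-cDC1, the B cell lectin Cd72, with 2.53, 2.37 and 4.53 FPKM, against 0.547, 0.703 and 0.785 FPKM in M-cDC1 (log2 difference 1.27, limma adjusted p 0.00491; 0.0619 with no filter, 0.054 with limma-voom and 0.243 with only the 2 groups), and 1 of them, Lgals3, was lower in L-cDC2. Over all tested genes 0.354% were called higher in L-cDC1 than in M-cDC1 and 0.788% lower in L-cDC2 than in M-cDC2. Lgals3, a galectin and not a C-type lectin, had 36.8, 49.0 and 43.2 FPKM in L-cDC2, against 83.2, 122 and 91.5 FPKM in M-cDC2 (log2 difference -1.17, limma adjusted p 0.00045).

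The 19 members below the filter included receptors best known from macrophages and monocytes. Mrc1, the macrophage mannose receptor, stood at 0.448, 0.477 and 0.0328 FPKM in L-cDC1 and 0.559, 0.606 and 0.558 FPKM in M-cDC1, against 0, 0 and 0.320 FPKM in L-cDC2 and 0, 0.178 and 0.105 FPKM in M-cDC2. Clec4d and Clec4e (Mincle), which recognise mycobacterial glycolipids, had no read in any of the 6 cDC1 libraries and at most 0.354 and 0.164 FPKM in cDC2. Clec5a, which pairs with the adaptor DAP12, had 0, 0 and 0.158 FPKM in L-cDC2, against 0.765, 0.836 and 1.42 FPKM in M-cDC2, and was not tested. Clec2g reached 1.95 FPKM in L-cDC2 replicate 2 and at most 0.531 FPKM in every other library. Clec1b (CLEC-2), the receptor of podoplanin, reached at most 0.866 FPKM and shares exon sequence with Clec9a. Clec2h, Clec2l, Clec4f, Clec11a, Clec12b, Cd209g, Clec3b and Clec14a stayed at or below 0.667 FPKM in every library, and Clec2e, Clec2m, Cd209f, Clec18a and Clec3a were listed at 0 in all 12.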

How the data were processed

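RNA of 12 samples of sorted mouse spleen cDCs was measured by RNA-seq, with SMART-Seq HT and Nextera XT kits per the labels' protocols; these kits do not mark strand. The authors deposited 1 table of FPKM values for the whole series, with gene names, types, coordinates and an exonic length (another quantity, in bases, deposited beside the FPKM). STAR 2.7.9a, featureCounts 2.0.1, cutadapt 3.7, Trim Galore 0.6.7, DESeq2 1.20.0 and Trimmomatic 0.39 are listed, with no role or order, in the submitters' processing notes, which also give the human build GRCh38, although the symbols are those of the mouse. The build of the table's coordinates is not given in the sources used here: 0 of 41 members found in GENCODE M21 (mouse GRCm38) start within 100 bases of it. Coordinates are those of the table, except promoter windows, which are RefSeq GRCm38.p6; positions of the 2 kinds cannot be compared.

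Values up to 100 reads times length were whole multiples of 1 read, within 0.01, in 100% of cases, which gave the depth of each library; intervals and floors from reads cover counting error only. The 12434 genes that reached 1 FPKM in 3 or more of 12 libraries were fitted as log2(FPKM + 1), 1 mean per group, with limma 3.58.1 (trend) in R 4.3.3, leaving 8 residual degrees of freedom. P-values were adjusted by Benjamini-Hochberg over all tested genes of a contrast and called under 0.05. The interaction subtracts the L minus M difference of cDC2 from that of cDC1. With 3 libraries against 3, the smallest p of an exact two-sided permutation test is 0.1. Members and lists were chosen with earlier results of these data known. Every member above the filter is named; from the pathway lists, called genes, at most 6 a contrast by smallest p; markers by count and sum. Shared 50-base words were counted among GENCODE M21 transcripts. The limma script was tested on simulated data. Alternatives were other pseudocounts, filters, scalings, limma-voom, robust variance, a fit of 2 groups, a replicate block and leaving out each library. For 1 gene of the list of related lectins, the result in cDC2 is not reported here.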

Additional observations from a re-analysis of the deposited data

Results flagged for a closer look

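For Clec4a3 the interaction term of limma (difference between L and M in cDC1, less the same difference in cDC2) was 1.88 log2 units of FPKM + 1 (SE 0.246, adjusted p 0.00667). The gene held 16 reads in L-cDC1 and 2 in M-cDC1, so no difference in cDC1 could show and the term restates the lower level in L-cDC2; it does not compare the subsets. For Clec7a, outside the naming rule, the same term was 2.14 (SE 0.291, adjusted p 0.00851), with a lower level in each L-cDC2 library than in any M-cDC2 library. Neither term was called with limma-voom on recovered reads (adjusted p 0.462 for Clec4a3 and 0.0868 for Clec7a).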

How the results depend on the processing

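Of 95 single-gene results, 77 kept direction and call under all of 22 alternatives; of 2058 recomputed values 34 lost and 11 gained a call. Only the uncalled Clec16a turned sign in cDC1 minus cDC2, to 0.08 in L and 0.17 in M with quantile normalization and 0.03 in M with median-of-ratios rescaling. The median of all tested genes in that contrast was -0.19 in L and -0.18 in M as deposited, -0.04 and -0.03 with median-of-ratios and 0.02 and 0.04 with quantile normalization, which called 2330 genes higher and 2098 lower in L and 2253 and 1967 in M. Called lectins in L minus M in cDC2, 5 in all, were 3 with a pseudocount of 0.1, 2 with only the 2 groups, and 4 to 6 leaving out 1 library; the 1 lectin of the interaction was 0 with a pseudocount of 0.1 and 0 with limma-voom.

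Over all genes, L minus M in cDC1 called 49, against 80 with a pseudocount of 0.1, 14 with no filter, 82 with a filter at 5 FPKM, 17 with only 2 groups, and 24 (without M-cDC1 replicate 2) to 102 (without M-cDC1 replicate 1), with 83 without L-cDC1 replicate 1 and 26 without M-cDC1 replicate 3. In cDC2 it called 227, against 142 with a filter at 5 FPKM, 137 with only 2 groups and 146 (without M-cDC2 replicate 2) to 232. The interaction called 37, against 21 with a pseudocount of 0.1, 10 with limma-voom and 10 (without M-cDC2 replicate 2) to 38. The cause of these changes was not tested, except that a fit of 2 groups holds fewer samples.

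With the replicate number as a block, limma called 45, 233, 4952, 4754 and 25 genes (L minus M in cDC1 and in cDC2, cDC1 minus cDC2 in L and in M, interaction) and 0, 5, 21, 21 and 1 lectins; of the single genes it moved the calls of Clec2f in cDC1 minus cDC2 (limma adjusted p 0.0387 in L and 0.0266 in M) and of Fcer1g in L minus M in cDC2 (0.054). Deviations of same-numbered libraries correlated at -0.01 to 0.16 over 18 pairs, 3 of them over 0.1, and 3 of 12 libraries correlated best with their own number in every other group, so the numbers were not taken to pair samples. Low lectins such as Cd209c, Cd209d and Clec2f are limited by depth, since 3 reads on 1 kb are worth up to 0.189 FPKM.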
